A study of Mus musculus with 2 samples.

Results

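The enzymes of serine synthesis and of the folate-bound carbon cycle were followed at the transcript level in mouse colon epithelium. The members were a list of 9 symbols: Phgdh, Psat1 and Psph for serine synthesis, and Shmt1, Shmt2, Mthfd1, Mthfd2, Mthfd1l and Tyms for the cycle that serine feeds. All 9 were found by symbol in both libraries, among 22350 gene symbols in all. The data came from colon epithelial cells of C57BL/6 mice, with 1 library of Pkm2-/- cells and 1 library of wild type cells, and the mice of both groups had been given dextran sulfate sodium (DSS) at 2.5% for 3 days, an agent that damages the colonic mucosa. No group without DSS was analysed here. The labels do not say how the Pkm2 allele was made, in which cells it is lost, the age of the mice, or how many animals entered a library.

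Serine synthesis branches off glycolysis above pyruvate kinase, the step that Pkm encodes: 3-phosphoglycerate is oxidised, transaminated and dephosphorylated to serine, and serine in turn binds and activates the PKM2 isoform. Serine hydroxymethyltransferases pass a carbon unit of serine to tetrahydrofolate and leave glycine. The carbon unit is then oxidised or reduced in mitochondria and cytosol and is used for purines, for thymidylate and for methylation, so these enzymes are known for their high expression in dividing cells such as those of the intestinal crypt.

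Levels are given in FPKM, a count of fragments adjusted for transcript length and for the mapped total, so that genes can be compared per length. Depth, read from the spacing of the lowest values, was about 20500000 fragments for the Pkm2-/- library and 18700000 for the wild type library. Since each genotype had 1 library, no test was possible, and every difference describes this pair of libraries. The 95% intervals are Clopper-Pearson intervals on the fragments behind a value, are approximate, and cover counting error only. Pkm itself stood at 86.2 FPKM in the Pkm2-/- library and 281 FPKM in the wild type library, a ratio of 0.307 (95% counting interval 0.296 to 0.318), and this gene-level value covers the Pkm1 and Pkm2 isoforms together. The epithelial markers Epcam (712 FPKM in Pkm2-/- and 584 FPKM in wild type) and Krt8 (2164 FPKM in Pkm2-/- and 1814 FPKM in wild type) were abundant in both libraries.

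The difference was greatest at the first steps of serine synthesis. Psat1 and Phgdh were at least 1.5-fold higher in the Pkm2-/- library on the log2(FPKM + 1) scale, and no member was at least 1.5-fold lower. Of the 12429 genes that averaged 1 FPKM or more, 4.46% were at least 1.5-fold higher and 5.29% at least 1.5-fold lower. No member was at least 2-fold higher on this scale, against 1.42% of all genes, and none was at least 2-fold lower, against 1.9%. In total 7 members had a log2 ratio above 0, a side on which 58.8% of all genes lay, and 2 had one below 0, against 41.2% of all genes. The median log2 ratio was 0.31 over the 9 members, all of which averaged 1 FPKM or more, and 0.06 over all genes.

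**Figure D1:**
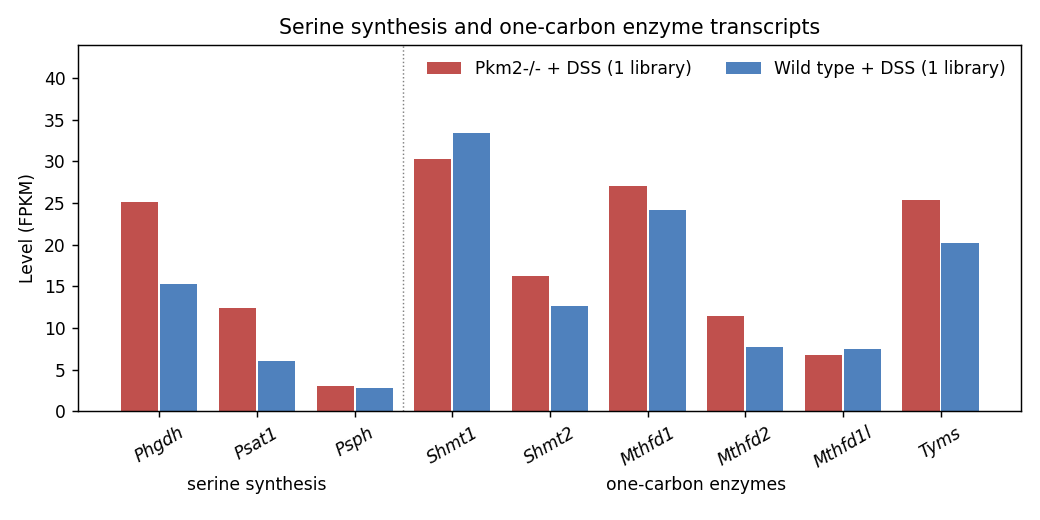
Level of each of the 9 members in FPKM, with the Pkm2-/- library in red and the wild type library in blue, 1 library each and therefore no error bars. The bars of Phgdh and Psat1 differ most in proportion, while those of Psph are low in both libraries.

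Upstream sequence is shown for 6 members, to set the serine synthesis genes and Mthfd2 beside the Shmt1 and Shmt2 pair. Each line holds the 250 bases before the RefSeq transcription start on GRCm38.p6, 5′ to 3′ along the gene, and capitals mark CCAAT or its reverse complement ATTGG.
Phgdh, chr3:98339970-98340219, minus strand: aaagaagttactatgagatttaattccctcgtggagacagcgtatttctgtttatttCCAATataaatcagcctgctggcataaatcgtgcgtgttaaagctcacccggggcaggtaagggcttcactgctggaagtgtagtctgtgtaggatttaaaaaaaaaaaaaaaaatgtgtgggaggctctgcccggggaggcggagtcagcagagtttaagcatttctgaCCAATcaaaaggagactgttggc
Psat1, chr19:15925060-15925309, minus strand: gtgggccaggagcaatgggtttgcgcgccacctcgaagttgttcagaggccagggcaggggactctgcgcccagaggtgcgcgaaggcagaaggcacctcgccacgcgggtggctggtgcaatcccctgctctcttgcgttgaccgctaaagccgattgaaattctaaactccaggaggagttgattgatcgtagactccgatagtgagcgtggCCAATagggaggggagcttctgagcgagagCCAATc
Psph, chr5:129787254-129787503, minus strand: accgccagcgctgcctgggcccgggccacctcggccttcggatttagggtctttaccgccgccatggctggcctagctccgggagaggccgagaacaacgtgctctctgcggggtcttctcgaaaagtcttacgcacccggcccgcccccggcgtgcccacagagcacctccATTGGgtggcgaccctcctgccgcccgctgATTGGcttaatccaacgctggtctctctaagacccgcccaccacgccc
Mthfd2, chr6:83317605-83317854, minus strand: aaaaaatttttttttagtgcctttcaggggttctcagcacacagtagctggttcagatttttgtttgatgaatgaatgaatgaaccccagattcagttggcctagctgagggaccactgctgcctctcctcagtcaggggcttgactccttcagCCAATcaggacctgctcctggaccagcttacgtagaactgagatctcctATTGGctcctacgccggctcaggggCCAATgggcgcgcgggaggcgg
Shmt1, chr11:60811266-60811515, minus strand: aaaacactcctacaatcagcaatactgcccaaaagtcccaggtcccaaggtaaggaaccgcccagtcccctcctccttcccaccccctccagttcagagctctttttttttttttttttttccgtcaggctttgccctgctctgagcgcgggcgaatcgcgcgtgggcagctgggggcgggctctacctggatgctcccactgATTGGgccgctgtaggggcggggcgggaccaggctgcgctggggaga
Shmt2, chr10:127522445-127522694, minus strand: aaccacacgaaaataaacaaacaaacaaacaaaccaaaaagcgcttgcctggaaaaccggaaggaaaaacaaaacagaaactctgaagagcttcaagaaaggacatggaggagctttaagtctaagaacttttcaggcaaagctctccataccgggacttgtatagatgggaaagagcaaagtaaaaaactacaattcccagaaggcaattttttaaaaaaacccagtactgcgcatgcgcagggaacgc
The CCAAT box is a promoter element that the factor NF-Y binds. It matched at least 2 times for Phgdh, Psat1, Psph and Mthfd2, 3 times for Mthfd2, once for Shmt1 and for Mthfd1, and not for Shmt2, Mthfd1l or Tyms. Of all 32851 promoter windows of this length, 33.8% held at least 1 match and 10.1% at least 2. Among the 11516 windows of genes that averaged 1 FPKM or more these shares were 35.4% and 13.0%. The motifs were chosen after the members' windows had been read, so these shares are not a test of enrichment. A second RefSeq start of Psat1, further into the gene, had no match in its 250 bases. The GENCODE genes of Phgdh, Psat1, Psph, Shmt1 and Mthfd2 reach further upstream than these RefSeq starts. That of Psat1 reaches to 15947337 and that of Mthfd2 to 83325908. Sequence before the GENCODE starts was not searched.

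Psph carried 2 CCAAT matches, as did Phgdh and Psat1. The plain ratio of Pkm2-/- over wild type was 1.11 for Psph, 1.64 for Phgdh and 2.07 for Psat1. It was 1.29 for Shmt2, which had no match, and 0.904 for Shmt1, which had 1. Whether the matches bear on these levels was not tested. The E-box CACGTG, a palindrome that MYC and related factors read, was found upstream of Tyms alone among the 9 members, 61 to 56 bases before its start. It was found in 6.02% of all windows and in 8.34% of those of genes that averaged 1 FPKM or more. TGATGNAA, the core of the element that ATF4 reads, was searched on both strands and was not found in any of the 10 windows of the members, and 3.45% of all windows and 1.93% of those of genes that averaged 1 FPKM or more held it. These letters may lie outside the windows, and a match is not a measured site. The motifs did not overlap one another.

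**Figure D2:**
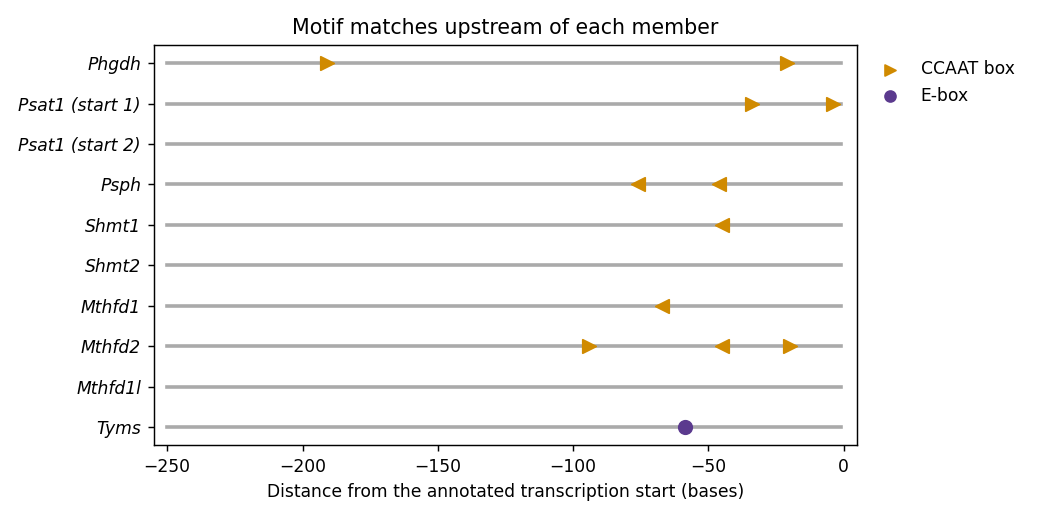
Positions of motif matches in the 250 bases before each RefSeq start, in bases from the start, with 1 row per start site. Orange arrowheads are CCAAT boxes, pointing right for the gene's strand and left for the other strand, and the purple dot is the palindromic E-box of Tyms. Phgdh, Psat1, Psph and Mthfd2 hold at least 2 CCAAT matches each, and the motifs were chosen after the windows had been read.

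Phgdh (ENSMUSG00000053398, chromosome 3, 98313170 to 98339990 on GRCm38, minus strand) encodes phosphoglycerate dehydrogenase, which commits carbon to serine. It stood at 25.1 FPKM in the Pkm2-/- library, against 15.3 FPKM in the wild type library, 1.64-fold higher (95% counting interval 1.47 to 1.82). Its log2 ratio of 0.68 was number 387 from the top among the 12429 genes. Of the 31-base words of its transcripts, 56.3% also occur in other annotated genes, 24 of which share at least 1% of them. Those 24 were listed at 0.0403 FPKM in all in the Pkm2-/- library and at 0 in the wild type library, so nearly all listed signal of these sequences lay on Phgdh, though reads from copies cannot be told apart from its own where the words are shared.

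Psat1 (ENSMUSG00000024640, chromosome 19, 15904678 to 15947337, minus strand) encodes the aminotransferase that takes its amino group from glutamate. Its level was 12.3 FPKM in the Pkm2-/- library and 5.97 FPKM in the wild type library, 2.07-fold higher (95% counting interval 1.80 to 2.38). This was the highest ratio of the 9, number 207 from the top among all genes, and its log2(FPKM + 1) ratio was 0.94. Psat1 passed Mthfd2 and Mthfd1l in the order of levels: it was the sixth of the 9 in the Pkm2-/- library and the eighth in the wild type library.

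Psph (ENSMUSG00000029446, chromosome 5, 129765558 to 129787449, minus strand) encodes the phosphatase that releases free serine. It was the lowest member in both libraries, with 3.07 FPKM in the Pkm2-/- library and 2.76 FPKM in the wild type library, a ratio of 1.11 whose counting interval of 0.888 to 1.39 includes 1. The exons of Psph overlap those of Cct6a, a chaperonin subunit gene on the opposite strand, over 452 bases. Cct6a stood at 95.9 FPKM in the Pkm2-/- library and 72.6 FPKM in the wild type library, and without known strand use part of the Psph value could be its fragments, which was not tested.

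With the longest transcripts, the 3 steps of serine synthesis did not differ by the same ratio. Within the Pkm2-/- library Psat1 stood at 4.02 times the Psph level, against 2.16 times within the wild type library. The first of these ratios was 1.86 times the second (95% counting interval 1.44 to 2.40). With the shortest coding transcripts, the intervals of the plain ratios overlapped, at 0.65 to 2.0 for Psph and 1.5 to 2.8 for Psat1. An interval for the 1.86 was not computed with those lengths. The possible part of Cct6a fragments in the Psph value also bears on these ratios. Phgdh stood at 2.04 times the Psat1 level in the Pkm2-/- library and 2.56 times in the wild type library. Together the 3 genes summed to 40.5 FPKM in the Pkm2-/- library and 24.0 FPKM in the wild type library, which was 25.7% of the sum over all 9 members in Pkm2-/- cells and 18.5% in wild type cells. Ratios within a library do not depend on how the libraries are scaled to each other.

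**Figure D3:**
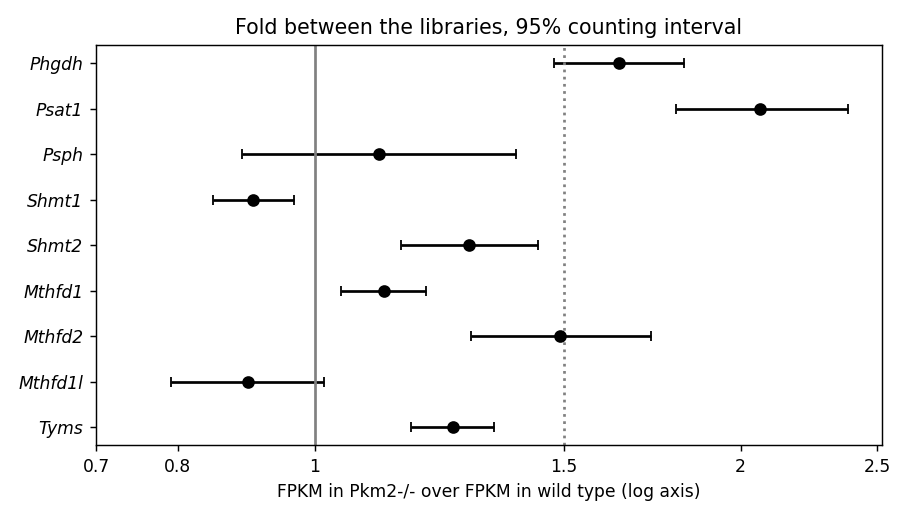
Ratio of FPKM in the Pkm2-/- library over FPKM in the wild type library for each member, on a log axis, with 95% counting intervals that leave out differences between animals. The solid line marks equal levels and the dotted line 1.5-fold. Psat1 lies furthest to the right at 2.07, and the intervals of Psph and Mthfd1l cross the solid line.

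The serine hydroxymethyltransferases went in opposite directions. Shmt2 (ENSMUSG00000025403, chromosome 10, 127517123 to 127522444, minus strand), the mitochondrial enzyme, stood at 16.3 FPKM in the Pkm2-/- library and 12.7 FPKM in the wild type library, 1.29-fold higher (95% counting interval 1.15 to 1.44). Shmt1 (ENSMUSG00000020534, chromosome 11, 60788104 to 60811718, minus strand), the cytosolic enzyme, was the highest member in both libraries, with 30.2 FPKM in the Pkm2-/- library and 33.4 FPKM in the wild type library, a ratio of 0.904 (95% counting interval 0.846 to 0.966). Both differences were below 1.5-fold. The Shmt2 level was 53.8% of the Shmt1 level in Pkm2-/- cells and 37.8% in wild type cells, and these shares differed 1.42-fold (95% counting interval 1.25 to 1.62). Shmt1 shares 184 exon bases with Smcr8 on the opposite strand, a gene at 8.26 FPKM in the Pkm2-/- library and 6.88 FPKM in the wild type library.

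In the next step of the mitochondrial arm, Mthfd2 (ENSMUSG00000005667, chromosome 6, 83305691 to 83325908, minus strand), a dehydrogenase and cyclohydrolase, stood at 11.5 FPKM in the Pkm2-/- library and 7.69 FPKM in the wild type library. The ratio was 1.49 (95% counting interval 1.29 to 1.73) and the log2(FPKM + 1) ratio 0.52, just under the 1.5-fold threshold, and none of its 31-base words occur in another gene. Mthfd1l (ENSMUSG00000040675, chromosome 10, 3973118 to 4167081, plus strand), the synthetase that releases formate from mitochondria, stood at 6.72 FPKM in the Pkm2-/- library and 7.50 FPKM in the wild type library, a ratio of 0.896 with an interval of 0.791 to 1.01. The mitochondrial arm was thus uneven, with Shmt2 and Mthfd2 higher in the Pkm2-/- library and Mthfd1l slightly lower. The Mthfd2 level was 1.71 times that of Mthfd1l in the Pkm2-/- library, against 1.03 times in the wild type library, a 1.66-fold difference (95% counting interval 1.38 to 2.01).

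Mthfd1 (ENSMUSG00000021048, chromosome 12, 76255298 to 76319803, plus strand) encodes the cytosolic enzyme that carries out in 1 protein the reactions which Mthfd2 and Mthfd1l share in mitochondria. It stood at 27.0 FPKM in the Pkm2-/- library and 24.2 FPKM in the wild type library, a ratio of 1.12 (95% counting interval 1.04 to 1.20). Mthfd2 and Mthfd1l together came to 67.3% of the Mthfd1 level in Pkm2-/- cells and 62.8% in wild type cells, and the interval of that 1.07-fold difference, 0.954 to 1.20, includes 1. The transcript ratio of mitochondrial over cytosolic enzyme thus differed between the libraries at the hydroxymethyltransferase step. For the later steps summed it did not differ beyond counting error. That sum joins Mthfd2, at a ratio of 1.49, with Mthfd1l, at 0.896, so it hides their unlike ratios. It leaves out the Mthfd2 relative Mthfd2l, at 7.20 FPKM in the Pkm2-/- library and 7.28 FPKM in the wild type library.

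Tyms (ENSMUSG00000025747, chromosome 5, 30058202 to 30073617, minus strand) encodes thymidylate synthase, which spends methylene-tetrahydrofolate on a DNA precursor. Its level was 25.3 FPKM in the Pkm2-/- library and 20.2 FPKM in the wild type library, 1.25-fold higher (95% counting interval 1.17 to 1.34). Of the 31-base words of Tyms transcripts, 11.4% occur in other genes, and the 66 genes that share at least 1% of them summed to 312 FPKM in the Pkm2-/- library and 230 FPKM in the wild type library. The part of those shared words in the Tyms difference was not tested. The log2 ratio of Tyms, 0.31, lay beside the median of 0.32 over 20 DNA replication genes, as described further on. In all, the counting interval excluded equal levels for 7 of the 9 members, on the higher side for 6 and on the lower side for Shmt1. The interval lay above 1 for 38.1% and below 1 for 23.1% of the 12396 genes with a mean of 1 FPKM or more and an annotated length. With the shortest coding transcript in place of the longest, the interval excluded equal levels for 6 members. These counts also depend on how the libraries are scaled to each other, and the intervals were not computed for rescaled libraries.

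**Figure D4:**
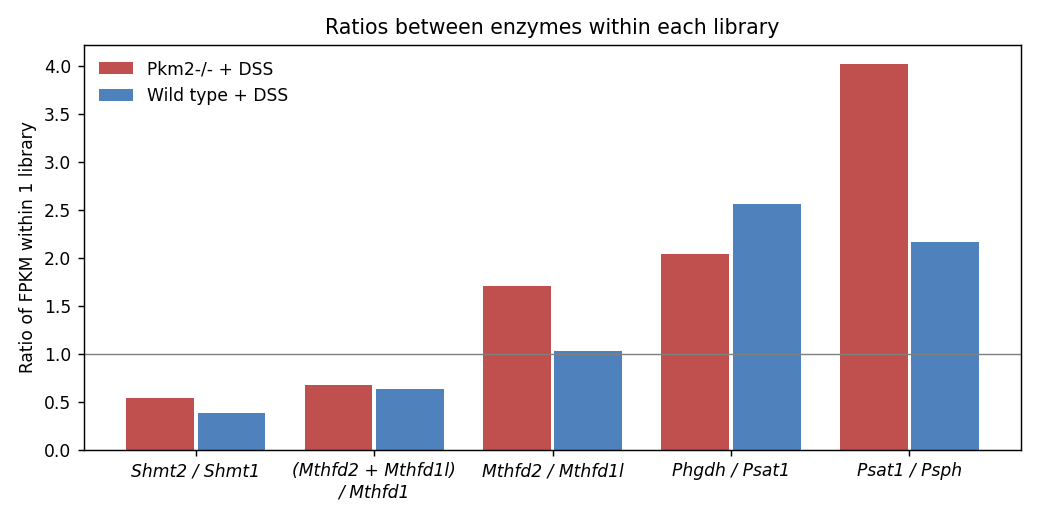
Ratios of FPKM between members within each library, with the Pkm2-/- library in red and the wild type library in blue, and a grey line at 1. Psat1 over Psph was 4.02 in Pkm2-/- and 2.16 in wild type, and Shmt2 over Shmt1 was 0.538 in Pkm2-/- and 0.378 in wild type.

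Genes around the 9 enzymes were compared to see how far the pattern reached, and their counts at 1.5-fold are all on the log2(FPKM + 1) scale. Of 19 other genes of folate uptake, the folate cycle and thymidine nucleotide supply (Dtymk, Dut and Tk1), 15 averaged 1 FPKM or more. None of the 15 was 1.5-fold apart, and the middle log2 ratio was 0.01. Mtfmt, which formylates the mitochondrial initiator tRNA, had the lowest log2 ratio of this list, -0.40, at 9.02 FPKM in the Pkm2-/- library and 12.2 FPKM in the wild type library. The Mthfd2 relative Mthfd2l stood at 7.20 FPKM in the Pkm2-/- library and 7.28 FPKM in the wild type library, a log2 ratio of -0.01 beside the 0.52 of Mthfd2.

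Among genes that use serine and glycine, 1 of 10 measured was at least 1.5-fold higher and none lower, with a median log2 ratio of -0.04. That gene was Gcat, which cleaves a product of threonine to glycine, at 12.9 FPKM in the Pkm2-/- library and 7.27 FPKM in the wild type library. With a pseudocount of 5 FPKM none was at least 1.5-fold higher. Srr, serine racemase, had the lowest log2 ratio of this list, -0.28, at 9.15 FPKM in the Pkm2-/- library and 11.4 FPKM in the wild type library. Gldc, the decarboxylase of the glycine cleavage system, was close to the detection limit, at 0.158 FPKM in the Pkm2-/- library and 0.0980 FPKM in the wild type library.

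Transporters of serine and glycine had a median log2 ratio of -0.06 over 8 genes, none of them 1.5-fold apart. Slc25a38, a mitochondrial glycine carrier, had the highest log2 ratio, at 11.6 FPKM in the Pkm2-/- library and 8.31 FPKM in the wild type library, and Sfxn2 the lowest, at 4.44 FPKM in the Pkm2-/- library and 6.04 FPKM in the wild type library. Sfxn1, which carries serine into mitochondria, stood at 26.1 FPKM in the Pkm2-/- library and 20.2 FPKM in the wild type library, a log2 ratio of 0.36. Of 8 measured methionine cycle genes none was 1.5-fold apart on that scale, and their median log2 ratio was 0.00. By the plain ratio of FPKM, Mtap, a methionine salvage enzyme, was 1.56-fold higher (3.90 FPKM in Pkm2-/- and 2.50 FPKM in wild type) and Mtr, methionine synthase, 1.62-fold higher (2.08 FPKM in Pkm2-/- and 1.29 FPKM in wild type). The lowest log2 ratio was that of Mat2a, which makes S-adenosylmethionine (183 FPKM in Pkm2-/- and 208 FPKM in wild type).

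The nucleotide pathways that take up the carbon units were set side by side. Purine synthesis had a median log2 ratio of 0.08 over 12 measured genes, with none 1.5-fold apart. Its ends were Atic, which uses formyl-tetrahydrofolate in the last steps of the purine ring (47.5 FPKM in Pkm2-/- and 32.6 FPKM in wild type), and Paics (35.5 FPKM in Pkm2-/- and 39.4 FPKM in wild type). Pyrimidine synthesis had a median of 0.27 over 10 genes, of which 9 had a ratio above 0 and none was 1.5-fold apart. Its ends were the ribonucleotide reductase subunit Rrm2 (19.8 FPKM in Pkm2-/- and 13.9 FPKM in wild type) and Dhodh, a mitochondrial dehydrogenase (6.31 FPKM in Pkm2-/- and 7.72 FPKM in wild type).

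Of the genes of lower glycolysis, none but Pkm was 1.5-fold apart. Their median log2 ratio was 0.02 over 9 genes, with Pgam1, the mutase that draws on the same 3-phosphoglycerate as Phgdh, highest in log2 ratio, 0.44, at 104 FPKM in the Pkm2-/- library and 76.0 FPKM in the wild type library. Phgdh came to 29.2% of the Pkm level in Pkm2-/- cells and 5.45% in wild type cells, where the plain ratios between the libraries were 1.64 for Phgdh and 0.307 for Pkm.

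ATF4 is a stress-activated factor that is known to act on Phgdh, Psat1, Shmt2 and Mthfd2, so its other targets were set beside them. The Atf4 transcript stood at 101 FPKM in both libraries, and the activity of the factor was not measured. Of 15 measured genes of this list, 1 was at least 1.5-fold higher and 1 lower, around a middle log2 ratio of -0.03. The asparagine synthetase gene Asns stood at 25.3 FPKM in the Pkm2-/- library and 28.0 FPKM in the wild type library, and the proline synthesis gene Pycr1 at 5.20 FPKM in the Pkm2-/- library and 7.46 FPKM in the wild type library. Chac1, a gene of glutathione breakdown, stood at 1.85 FPKM in the Pkm2-/- library and 1.15 FPKM in the wild type library, a log2 ratio of 0.41 and a plain ratio of 1.62. The higher gene was Wars, a tRNA synthetase also induced by interferon-gamma, at 390.4 FPKM in the Pkm2-/- library and 37.1 FPKM in the wild type library. The lower gene was Vldlr, a lipoprotein receptor, at 4.41 FPKM in the Pkm2-/- library and 7.35 FPKM in the wild type library.

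**Figure D5:**
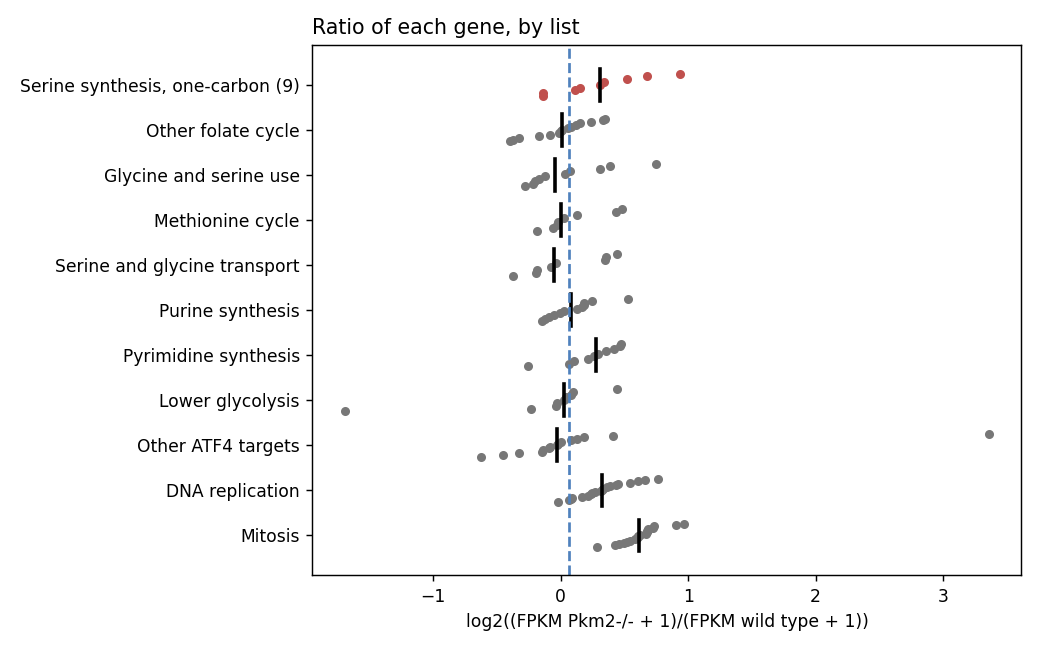
Log2 ratio of Pkm2-/- over wild type, on the log2(FPKM + 1) scale, of the genes that averaged 1 FPKM or more in 11 lists, with the 9 members in red and the cell type marker lists not drawn. Black bars are list medians and the dashed line is the median of all genes, 0.06. The members' median of 0.31 lies near those of pyrimidine synthesis at 0.27 and DNA replication at 0.32, and below that of mitosis at 0.62. The general epithelial markers, not drawn, also had a median of 0.27. The single points far to the left and right of the drawn lists are Pkm and Wars.

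Genes of dividing cells were higher in the Pkm2-/- library beside the serine enzymes. Of 20 mitosis genes, 14 were at least 1.5-fold higher, with a median log2 ratio of 0.62, namely Mki67, Top2a, Ccna2, Ccnb1, Bub1, Bub1b, Aurka, Cenpe, Kif11, Tpx2, Birc5, Cdc20, Ube2c and Nusap1. Of these Ccna2, cyclin A2, had the highest ratio, at 49.3 FPKM in Pkm2-/- and 24.7 FPKM in wild type. Of 20 DNA replication genes, 3 were at least 1.5-fold higher: Fen1 (22.2 FPKM in Pkm2-/- and 12.7 FPKM in wild type), Cdc45 (10.6 FPKM in Pkm2-/- and 6.36 FPKM in wild type) and Gins1 (7.28 FPKM in Pkm2-/- and 4.43 FPKM in wild type). The lowest log2 ratios of these lists were those of Plk1, a mitotic kinase, at 0.28 and of Gins2 at -0.02. The log2 ratios of Phgdh, 0.68, and Psat1, 0.94, lay above the medians of both lists, those of Mthfd2, 0.52, and Shmt2, 0.34, lay between them, and those of Tyms, Psph, Shmt1, Mthfd1 and Mthfd1l lay below both. In bulk RNA a larger share of dividing cells and more transcript per cell cannot be told apart, and the part of the dividing cells in the members' values was not tested.

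Markers of other cell types also differed between the libraries, and with 1 library per genotype this cannot be assigned to the genotype. The 10 T cell markers summed to 103 FPKM in the Pkm2-/- library and 28.0 FPKM in the wild type library, all 10 were at least 1.5-fold higher (Cd3e, Cd3g, Cd3d, Cd8a, Trac, Ptprc, Gzma, Gzmb, Itgae and Lck), and none was at 0 in either library. Their log2 ratios lay between 0.91 for Cd3d and 2.58 for Gzma. The 9 macrophage and dendritic cell markers summed to 24.3 FPKM in Pkm2-/- and 11.0 FPKM in wild type. Of the 7 measured, 4 were at least 1.5-fold higher (Fcer1g, Laptm5, Itgax and Tyrobp). The others were Itgam at a log2 ratio of 0.30, Cd68 at -0.04 and Lyz2, the lowest, at -0.08. Csf1r and Adgre1 averaged below 1 FPKM. The 8 B and plasma cell markers summed to 34.6 FPKM in Pkm2-/- and 10.004 FPKM in wild type, with the plasma cell products Igkc, Igha and Jchain at least 1.5-fold higher and Ighm at a log2 ratio of 0.37. Fibroblast and muscle markers summed to 1.60 FPKM in Pkm2-/- and 4.42 FPKM in wild type, and Dcn, at 0.870 FPKM in Pkm2-/- and 2.65 FPKM in wild type, was the 1 that averaged 1 FPKM or more. Pdgfra and Des were listed at 0 in Pkm2-/- and at 0.00745 and 0.0289 FPKM in wild type, and Acta2 stood at 0.232 FPKM in Pkm2-/- and 0.0281 FPKM in wild type.

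Markers of differentiated colonocytes went the other way. The 8 genes summed to 4135 FPKM in Pkm2-/- and 6625 FPKM in wild type, and 6 of them were at least 1.5-fold lower (Car1, Car4, Aqp8, Slc26a3, Cdhr5 and Ceacam20). Car4 had the lowest log2 ratio, -2.36, and Krt20 the highest, 0.01. The 8 general epithelial markers summed to 5525 FPKM in Pkm2-/- and 4641 FPKM in wild type, none 1.5-fold apart and with a median log2 ratio of 0.27 like that of pyrimidine synthesis, between Krt18 at a log2 ratio of -0.04 and Cdh1 at 0.39. The part of these cell types in the members' values was not tested.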

How the data were processed

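The authors deposited 1 table per library with an FPKM value, a symbol and a locus for each Ensembl gene, and no header. The unit was inferred from the tools named in the submitters' processing notes, Cuffdiff (versions 1.3.0 and 2.2.1), Cufflinks 2.2.1, TopHat2 2.1.1 and Bowtie2 2.2.9, and from the values. Those notes name the build mm8, but of 22384 gene IDs 99.4% were in GENCODE M21 and 99.96% of these had an overlapping locus on GRCm38, so GENCODE M21 coordinates are given. Strand use is not given in the sources used here.

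FPKM of rows that share a symbol (34 symbols) were summed and an unlisted gene was taken as 0. The log2 ratio was log2((Pkm2-/- FPKM + 1)/(wild type FPKM + 1)), which understates differences of low genes, and a plain ratio has no pseudocount. Genes that averaged 1 FPKM or more were counted by size at 1.5-fold and 2-fold. With 1 library per group there was no test. Fragments behind a value were estimated from the FPKM, the longest GENCODE transcript and the worth of 1 fragment, 0.0489 FPKM times kb in the Pkm2-/- and 0.0535 in the wild type library, taken from the lowest values of 363 and 365 genes with 1 transcript over 1.5 kb. Intervals of ratios between members use a normal approximation on the log scale and were computed with the longest transcripts only. The depth and interval code was tested on simulated Poisson counts, made and read back with the same transcript lengths. That test does not cover errors in the transcript length or spread beyond counting error. Promoter windows are from RefSeq on GRCm38.p6, matched by symbol for all 9 members, and the motifs were chosen after the windows had been read.

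The members, lists and thresholds were chosen with earlier results of these data known. All 9 members are named, and of every other list the measured genes with the highest and the lowest ratio and those past 1.5-fold were the rule, with a few more genes added for their role after their values were seen. A few genes that this rule names are not reported here. Scaling, pseudocount, the filter on low values, the mean over members and the transcript length were varied. The Python version was 3.11.15, with numpy 2.4.6, pandas 2.3.3, scipy 1.17.1 and matplotlib 3.10.9.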

Additional observations from a re-analysis of the deposited data

How the results depend on the processing

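Each of the 9 members kept the sign of its log2 ratio under 3 rescalings of the libraries (equal medians, equal upper quartiles, and equal totals without the mitochondrial genome) and with pseudocounts of 0.1 and 5 FPKM. The rescaling without the mitochondrial genome multiplied the Pkm2-/- values by 2.21 and the wild type values by 2.13. The pseudocount and the filter stayed at 1, so the pseudocount weighed less and 13942 genes passed the filter, against 12429 as deposited. How much of the changes in that setting came from this and how much from the scaling between the libraries was not tested. The 2 members at least 1.5-fold higher became 1 with a pseudocount of 5, where Psat1 was at 0.66 and Phgdh at 0.57 on the log2 scale, and 3 after rescaling without the mitochondrial genome, where Mthfd2 joined at 0.60. The count at least 2-fold higher, 0, became 1 with a pseudocount of 0.1 and also 1 after rescaling without the mitochondrial genome, each time through Psat1 at 1.03 and 1.04. The members' median log2 ratio, 0.31, ranged between 0.23 with equal medians and 0.36 without the mitochondrial genome. With equal medians 3.35% of all genes were at least 1.5-fold higher and 6.46% lower, against 4.46% and 5.29% as deposited. The share of all genes at least 1.5-fold higher was 1.77% with a pseudocount of 5 FPKM. It was 6.98% after rescaling without the mitochondrial genome. Shares of all genes at 2-fold were not computed for these settings. The 14 mitosis genes at least 1.5-fold higher became 9 with equal medians, 9 with equal upper quartiles and 3 with a pseudocount of 5, and the 3 DNA replication genes became 1 with equal medians and 1 with that pseudocount. The 0 methionine cycle genes became 2 with a pseudocount of 0.1 and 1 without the mitochondrial genome, the 1 gene of glycine and serine use (Gcat) became 0 with a pseudocount of 5, and the 1 higher ATF4 target became 2 with a pseudocount of 0.1. The 0 higher purine synthesis genes became 1 without the mitochondrial genome. With a pseudocount of 5 the 1 lower ATF4 target became 0 and the 1 lower fibroblast marker 0. The 10 higher T cell markers became 8 there, and the 4 higher macrophage and dendritic cell markers 2. The medians of the other folate cycle, glycine and serine use, methionine cycle, lower glycolysis and ATF4 lists, all close to 0, changed sign under at least 1 setting. With the shortest coding transcript in place of the longest, the counting interval of Mthfd1 included 1. The causes were not tested. No paired analysis was possible because each genotype had 1 library. Depth limits Psph most, with about 181 fragments in Pkm2-/- and 149 in wild type.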
